A study of Homo sapiens with 12 samples.

Results

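Collagen VI is built from α chains encoded by separate genes, and the 3 described here are COL6A1, COL6A2 and COL6A3, 3 of the 54261 genes in the expression table. They were taken by symbol, and were chosen by their FPKM in these same libraries, because their baseline levels and their differences with the share of fibroblasts were seen to differ. Their values are therefore given as a description, without tests. The cells are BON-1, an established line from a human pancreatic neuroendocrine tumour. RNA was sequenced from 3 libraries of BON-1 alone and from 3 libraries each of BON-1 taken by flow cytometry out of co-culture with cancer-associated fibroblasts (CAFs), mixed 10:2, 10:4 or 10:6 (BON-1 to CAFs). The labels name no other treatment, and give neither the source of the CAFs nor the length of co-culture. They do not say how BON-1 cells were told from CAFs in the sort, how pure the sorted cells were, or whether BON-1 alone went through the sorter. Nothing in them says that the libraries of a group came from separate cultures, so errors and p-values measure the spread between these libraries, which may be technical.

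The α1, α2 and α3 chains of collagen VI wind into a triple-helical monomer that holds a copy of each. Inside the cell monomers pair into antiparallel dimers and then tetramers, which after secretion join end to end into beaded microfilaments around cells and basement membranes. The α3 chain is the longest of these chains, and its C-terminal end is cleaved off after secretion, releasing the fragment known as endotrophin. Loss of any of these chains can cause the collagen VI muscle disorders (Bethlem myopathy and Ullrich dystrophy). In tumours collagen VI is a common component of the stroma, and fibroblasts are its best known source, though tumour cells can transcribe its genes as well.

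COL6A1 and COL6A2 are neighbours on the same strand. In GRCh38.p14, COL6A1 (Entrez gene 1291) lies at chr21:45981770-46005048 and COL6A2 (Entrez gene 1292) at chr21:46098112-46132848, with 93063 bases between the end of the former and the start of the latter. COL6A3 (Entrez gene 1293) lies on another chromosome, at chr2:237324018-237414164 on the minus strand. RefSeq promoter sequences (GRCh38.p14) matched 2 of the 3 chains, COL6A2 and COL6A3, with COL6A1 the missing entry. The 120 bases before each start are shown because the letters upstream of these 2 chains differ plainly. A link between these letters and the levels of the chains was not tested. Capitals mark matches, on either strand, to the TATA box letters TATAAA and the GC box letters GGGCGG, which do not overlap each other here. The stretches are chr21:46097992-46098111 on the plus strand for COL6A2 and chr2:237414165-237414284 on the minus strand for COL6A3.
COL6A2: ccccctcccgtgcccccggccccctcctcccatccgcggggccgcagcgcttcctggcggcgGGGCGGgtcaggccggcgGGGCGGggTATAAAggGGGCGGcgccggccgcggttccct
COL6A3: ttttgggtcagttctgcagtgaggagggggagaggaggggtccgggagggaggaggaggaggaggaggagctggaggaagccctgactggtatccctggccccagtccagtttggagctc

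The stretch before COL6A2 held 1 TATA match and 3 GC box matches, and that before COL6A3 held neither motif. Over the full window of 300 bases (250 before the start to 50 after it), COL6A2 had 1 TATA and 4 GC box matches and COL6A3 had none. Among 35116 RefSeq promoters of that length 11.5% held TATAAA and 45.0% held GGGCGG. The letters CCAAT (34.6% of promoters), TGAGTCA (an AP-1 site, 4.95%) and GGAATG (a TEAD site, 14%) were in neither window on either strand. COL6A2 had 36 CpG pairs in its window and COL6A3 had 4, against a median of 14 and a 10th to 90th percentile range of 1 to 37. Base composition followed the same order, at 79.3% G or C for COL6A2 and 56.3% for COL6A3, where the median promoter had 58.7%. A match is a run of letters and not evidence of binding.

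Levels are FPKM, reads counted on a gene scaled by its length and by the depth of the library, which allows levels to be compared between genes. Whole reads could be recovered from these values, which gave depths of 16757991, 21882537 and 12918760 reads for BON-1 alone and 11703624 to 15327524 for the co-cultures. Counts of any 2 replicates in a group differed beyond sampling noise of independent reads (chi-square per degree of freedom 1.66 to 4.07). Technical steps and the way reads were counted can add to this spread, so it does not tell what the replicates were. The BON-1 label was checked with 12 neuroendocrine markers, of which 10 had a mean of at least 1 FPKM in each group. Their summed level was 2750 to 2828 FPKM in BON-1 alone and 2986 to 3174 FPKM over the co-cultures. Members went both ways: 5 of 10 tested rose and 5 fell at 10:6 (limma adjusted p under 0.05), where 29.7% of all genes tested rose and 18.3% fell. SCG2 went from 746.7 to 1401 FPKM and CHGA from 1347 to 975.1, while NCAM1 and TPH1 were near 0 throughout.

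COL6A1, which encodes the α1 chain, was the most abundant chain in every library and lay at nearly the same FPKM in all groups. It stood at 22.46, 23.19 and 21.51 FPKM in BON-1 alone, 23.1, 22.78 and 22.63 at 10:2, 21.78, 22.52 and 24.37 at 10:4, and 24.72, 23.36 and 23.95 at 10:6. The libraries of 10:2 and 10:4 overlapped those of BON-1 alone, whereas all 3 libraries at 10:6 lay above them, the nearest pair being 23.36 and 23.19 FPKM. Group means were 22.39 ± 0.843 FPKM (SD, n = 3) in BON-1 alone, 22.83 ± 0.237 at 10:2, 22.89 ± 1.33 at 10:4 and 24.01 ± 0.683 at 10:6. The 10:6 mean was 1.07 times that of BON-1 alone, a difference of 0.10 ± 0.04 (SE) in log2(FPKM + 1). At 10:2 and 10:4 the difference was 0.03 ± 0.04 in each, smaller than its error, and with median-of-ratios scaling it changed sign (-0.00 and -0.01) while that at 10:6 was 0.04. Other processing made it larger. With length and GC trends removed by a spline (described below) it was 0.09, 0.13 and 0.20 (SE 0.04 each) at 10:2, 10:4 and 10:6. With linear trends it was 0.16, 0.23 and 0.28 (SE 0.04 each), so how level this gene appears depends on the processing. With 1142 to 2144 reads in a library, counting error for this gene was 2.53% to 2.85% of the level in a group, against an observed spread (coefficient of variation) of 1.04% to 5.83%.

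COL6A2, which encodes the α2 chain, started lower and stood higher with each larger share of CAFs. It lay at 4.495, 4.974 and 5.686 FPKM in BON-1 alone, 5.452, 6.286 and 5.273 at 10:2, 7.732, 8.785 and 8.168 at 10:4, and 10.16, 10.02 and 9.529 at 10:6. The 10:2 libraries overlapped those of BON-1 alone; 10:4 lay above both groups, and 10:6 above 10:4, with no overlap. Group means were 5.052 ± 0.599, 5.67 ± 0.541, 8.228 ± 0.529 and 9.902 ± 0.33 FPKM (SD, n = 3 each), in order of CAF share. Against BON-1 alone the means were 1.12, 1.63 and 1.96 times as high, with differences in log2(FPKM + 1) of 0.14, 0.61 and 0.85 (SE 0.08 each). From 10:2 to 10:4 the log2 difference was 0.47 and from 10:4 to 10:6 it was 0.24. The gene had 238 to 573 reads in a library. Its spread in BON-1 alone was 11.9% of the mean, where counting error was 5.66%, and at 10:6 the spread was 3.33%, where counting error was 4.35%.

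COL6A3, which encodes the long α3 chain, was the least abundant of the chains and had the largest relative difference. It lay at 1.314, 1.123 and 1.368 FPKM in BON-1 alone, 2.253, 1.747 and 1.766 at 10:2, 3.364, 3.816 and 3.899 at 10:4, and 4.887, 5.056 and 4.867 at 10:6. No library of any group overlapped those of a group with fewer CAFs. Group means were 1.268 ± 0.129, 1.922 ± 0.287, 3.693 ± 0.288 and 4.937 ± 0.103 FPKM (SD, n = 3 each). Against BON-1 alone they were 1.52, 2.91 and 3.89 times as high, and the differences in log2(FPKM + 1) were 0.36, 1.05 and 1.39 (SE 0.08 each). That scale understates a change of a gene at this level: with a pseudocount of 0.1 the 10:6 difference was 1.88. Because the gene is long (10582 bases recovered from its values, against 4225 for COL6A1 and 3730 for COL6A2), it still had 187 to 820 reads in a library.

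**Figure D1:**
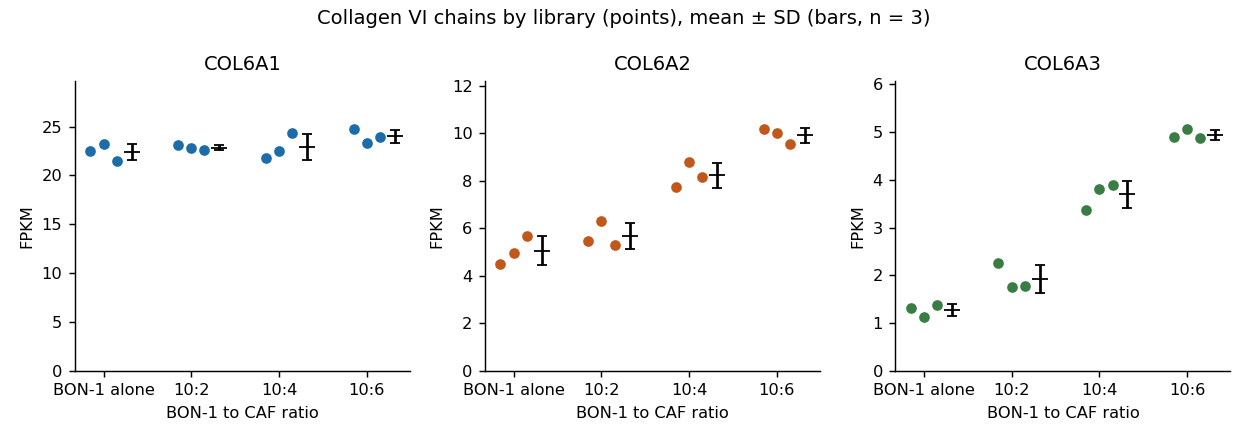
FPKM (vertical axis, a separate range in each panel, from 0) of COL6A1, COL6A2 and COL6A3 in each library (points) by BON-1 to CAF ratio, with the mean ± SD of 3 libraries beside them. COL6A1 stays between 21.51 and 24.72 FPKM, while the 10:6 libraries of COL6A2 and COL6A3 lie above all others.

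These values chose the genes, so nothing is read from how many of them stood apart; the background over the 13312 genes tested is given for scale. The share of genes whose libraries lay wholly above those of BON-1 alone was 27.1% at 10:2, 30.8% at 10:4 and 33.8% at 10:6. It was 14.6% for 10:4 over 10:2, 9.77% for 10:6 over 10:4 and 17.6% for 10:6 over 10:2.

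In absolute terms the order of the differences was another. The 10:6 mean exceeded that of BON-1 alone by 4.85 ± 0.395 FPKM (SE) for COL6A2, by 3.67 ± 0.0954 for COL6A3 and by 1.63 ± 0.626 for COL6A1. At 10:4 the excess was 3.18 ± 0.461 for COL6A2, 2.43 ± 0.182 for COL6A3 and 0.501 ± 0.912 for COL6A1, the last smaller than its error. At 10:2 it was 0.654 ± 0.181 for COL6A3, 0.618 ± 0.466 for COL6A2 and 0.449 ± 0.506 for COL6A1. COL6A2 therefore had the largest difference in FPKM at 10:4 and 10:6, and COL6A3 the largest in fold.

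The balance between the chains shifted with CAF share. COL6A1 stood at 4.48 ± 0.627 (SD, n = 3) times the level of COL6A2 in BON-1 alone, 4.05 ± 0.371 at 10:2, 2.79 ± 0.212 at 10:4 and 2.43 ± 0.0911 at 10:6. Relative to COL6A3 it stood at 17.8 ± 2.54, 12 ± 1.55, 6.21 ± 0.29 and 4.87 ± 0.224 times. COL6A2 stood at 4.0 ± 0.522 times COL6A3 in BON-1 alone and 2.01 ± 0.0635 times at 10:6, passing through 3.0 ± 0.589 and 2.23 ± 0.119. Of the summed FPKM of the 3 chains, COL6A1 made up 78.0% in BON-1 alone and 61.8% at 10:6. The share of COL6A2 was 17.6% and 25.5% in those groups, and that of COL6A3 was 4.42% and 12.7%. In no library did the transcripts reach equal levels, the composition that the assembled monomer has. RNA levels do not give the amounts of protein.

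**Figure D2:**
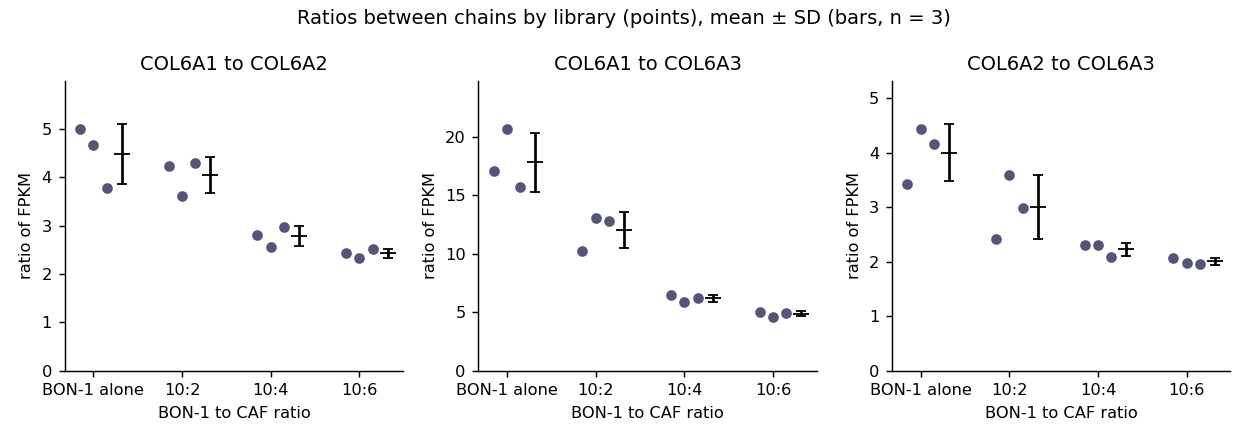
Ratio of FPKM between each pair of chains (vertical axis, from 0, a separate range in each panel) in each library (points), with the mean ± SD of 3 libraries, by group. All 3 ratios are highest in BON-1 alone on average and lowest at 10:6, where COL6A1 to COL6A3 has a mean of 4.87.

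Among 44 protein-coding collagen genes, COL6A1 had the 2nd highest mean FPKM in BON-1 alone and at 10:2, the 3rd at 10:4 and the 4th at 10:6. COL4A2, a basement membrane collagen, led in BON-1 alone (43.59 FPKM), at 10:2 (40.69) and at 10:4 (40.95), and COL1A1, the main chain of fibrillar collagen I, led at 10:6 (54.44). COL6A2 ranked 8, 9, 8 and 8, and COL6A3 ranked 11 in every group. Summed collagen FPKM was 133.1 in BON-1 alone and 238.7 at 10:6. Of these sums COL6A1 took 16.8% and 10.1%, COL6A2 3.8% and 4.15%, and COL6A3 0.953% and 2.07%.

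COL6A2 and COL6A3 were both higher where fibroblast markers were higher. The summed FPKM of 23 fibroblast markers was 147.6 to 152.0 in BON-1 alone, 183.8 to 187.7 at 10:2, 269.6 to 277.4 at 10:4 and 353.9 to 356.4 at 10:6. Mean levels of 20, 22 and 21 of the 23 were above those of BON-1 alone at 10:2, 10:4 and 10:6. Some of the 23 had few reads, such as DCN with 6 in BON-1 alone and 7 at 10:2. Of 14 that passed the filter on low values, PDGFRB, COL5A1, COL5A2 and THY1 were below 1 FPKM in BON-1 alone and passed through co-cultures where they were high, so that their rise was partly set by the filter. Of the other 10, 7, 9 and 10 rose (limma on log2(FPKM + 1), Benjamini-Hochberg adjusted p under 0.05), with median log2 differences of 0.69, 1.62 and 2.13. Over all genes tested 19.9%, 27.3% and 29.7% rose, and the median was 0.00, -0.01 and 0.02. With trends on length and GC removed (described below), PDGFRA and VIM lost their calls at 10:4 and 10:6. At 10:6 they were then at 0.00 (limma adjusted p = 0.985) and -0.02 (limma adjusted p = 0.726). FN1 lost its call at 10:2 (-0.08, limma adjusted p = 0.191), and the other calls of the 10 held. COL5A2, below 1 FPKM in BON-1 alone, lost its call at 10:2 as well (0.28, limma adjusted p = 0.0561). Levels at 10:6 ran from 54.44 FPKM for COL1A1, 38.48 for ACTA2 and 34.57 for SPARC to values under 1 FPKM for 9 of the 23. Among the latter, POSTN was at 0.0617 FPKM in BON-1 alone and 0.832 at 10:6, DCN at 0.0293 and 0.334, and FAP at 0.00936 and 0.0967, while PDPN and TWIST1 were at 0 at 10:6. The part of these genes in the levels of the collagen VI chains was not tested, and in bulk RNA a larger number of cells of a type and more RNA per cell cannot be told apart. Among markers of other cells, the summed FPKM of 7 pericyte and smooth muscle markers was 2.95 to 3.307 in BON-1 alone and 6.555 to 7.267 at 10:6. That of 6 endothelial markers was 43.35 to 44.05 and 41.7 to 44.31, and that of 7 leukocyte markers was 8.449 to 9.018 and 10.08 to 10.57, with CD3E at 0 in all libraries.

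Of its excess at 10:6 over BON-1 alone, COL6A2 had 12.7% at 10:2 and 65.5% at 10:4, and COL6A3 had 17.8% and 66.1%. Over the 14 tested fibroblast markers the median was 18.6% at 10:2, from -3.89% for VIM to 45.5% for PDGFRA. At 10:4 it was 62.0%, from 49.0% for FN1 to 100% for PDGFRA. VIM and PDGFRA, at ends of these ranges, lost their calls at 10:6 with length and GC trends removed. These ranges are wide and the ends of the scale are fixed at BON-1 alone and 10:6, so the values describe steps and do not show likeness. COL6A1, whose excess at 10:6 was small, had 27.6% and 30.8%. All of these shares rest on the same BON-1 alone and 10:6 libraries. For size, the excess at 10:6 was 45.21 FPKM for COL1A1, 26.72 for COL1A2 and 12.59 for COL3A1, chains of the fibrillar collagens I and III, against 4.85 for COL6A2 and 3.67 for COL6A3.

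**Figure D3:**
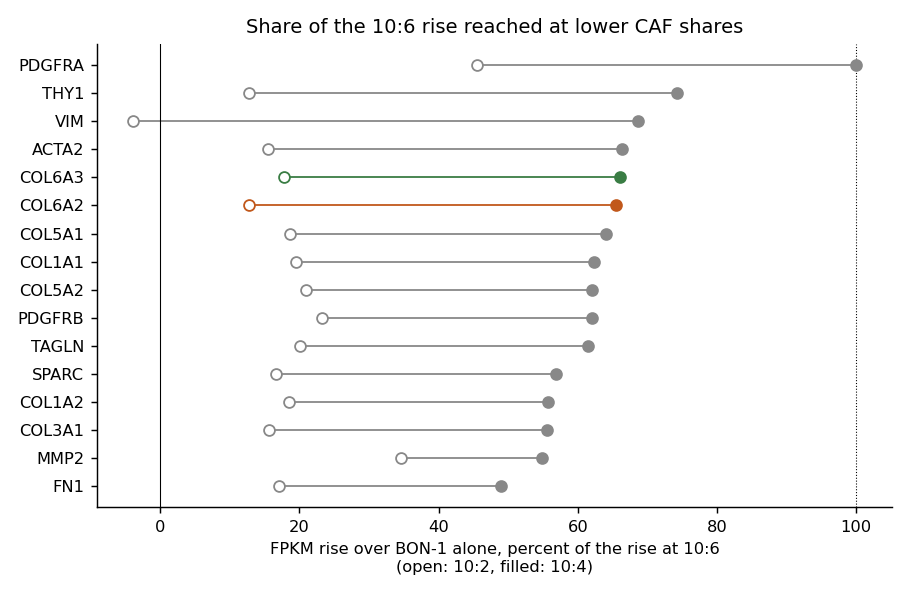
Excess of mean FPKM over BON-1 alone at 10:2 (open) and 10:4 (filled) as a percentage of the excess at 10:6 (horizontal axis), for COL6A2 and COL6A3 (coloured) and the 14 tested fibroblast markers (grey). COL6A2 and COL6A3 are at 65.5% and 66.1% for 10:4, and the markers range from 49.0% to 100%.

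Differences between the groups also went with base composition over all genes, which touches these GC-rich chains. By the gene models of GENCODE 29, transcripts were 63.54% G or C for COL6A1, 66.4% for COL6A2 and 53.23% for COL6A3, where the median gene tested had 49.73%. At 10:6 against BON-1 alone the median log2 difference was 0.40 in the fifth of genes lowest in GC and -0.15 in the fifth highest in GC, which held COL6A1 and COL6A2. With trends on length and GC removed by a spline, the 10:6 differences were 0.20 for COL6A1, 0.96 for COL6A2 and 1.41 for COL6A3, each at least as high as before. With linear trends they were 0.28, 1.10 and 1.33. The differences of COL6A2 and COL6A3 were above 0 in all comparisons under every setting run, whereas COL6A1 at 10:6 ranged from 0.04 to 0.28. For COL6A2 at 10:2 against BON-1 alone the sign says little: the difference was 0.14 ± 0.08 (SE). With quantile normalization it was 0.03 ± 0.08, smaller than its error.

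**Figure D4:**
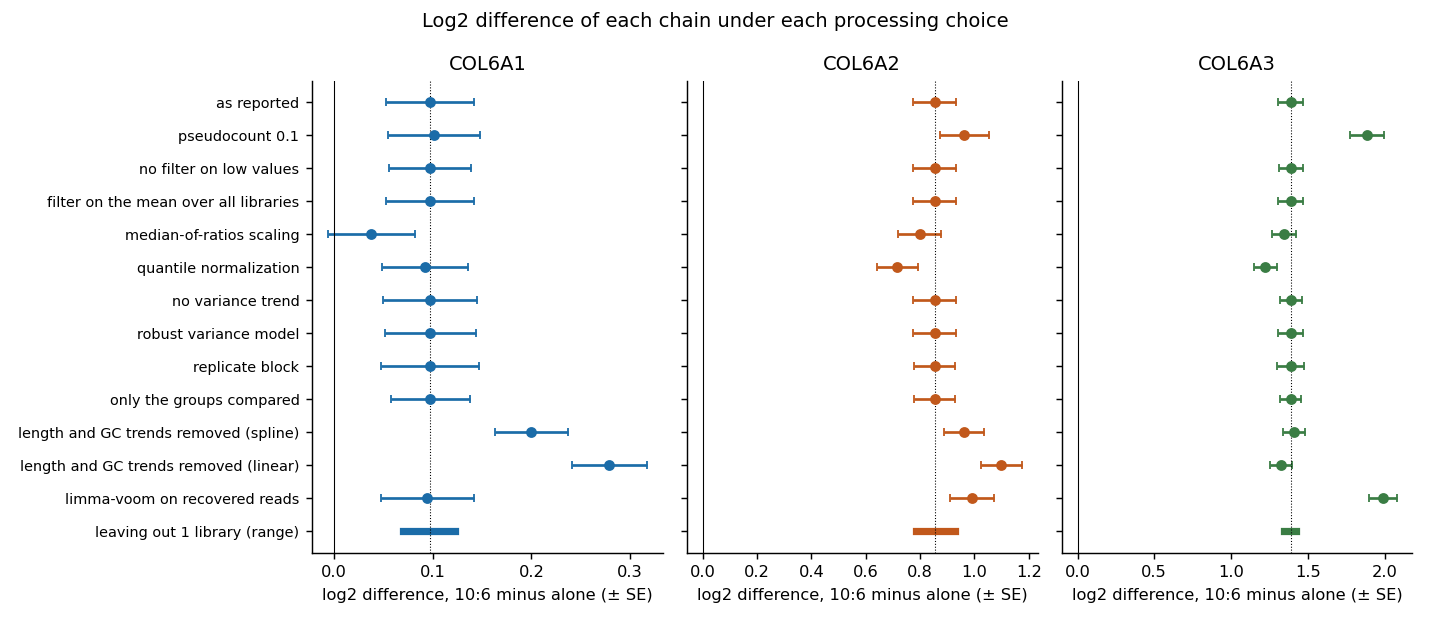
Difference in log2(FPKM + 1) at 10:6 against BON-1 alone (horizontal axis, ± SE, a separate range in each panel) under each processing choice, with the range over leaving out each library as a thick line; for limma-voom the values are log2 of depth-scaled reads. COL6A2 and COL6A3 lie well above 0 in each, and COL6A1 is lowest with median-of-ratios scaling, at 0.04.

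The other collagen VI genes were all but silent. COL6A5 and the pseudogene COL6A4P2 were listed at 0 in all 12 libraries. COL6A6, like COL6A5 a chain that can stand in for α3, had a single value above 0, 0.00491 FPKM from 1 read in replicate 2 of 10:4. The pseudogene COL6A4P1 lay at 0.308 ± 0.191, 0.273 ± 0.126, 0.333 ± 0.0642 and 0.299 ± 0.061 FPKM (SD, n = 3), from 24 to 32 reads a group, with no difference beyond its spread. None of these 4 reached the level needed for a test.

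Genes for receptors of collagen VI were next. These are integrin subunits, most of them of collagen-binding integrins, the proteoglycan NG2 (CSPG4) and the anthrax toxin receptors ANTXR1 and ANTXR2. Of 9 receptors 5 were expressed enough to test, and 4 rose and none fell (0 also at an unadjusted p under 0.05 and with limma-voom) against BON-1 alone at each of 10:2, 10:4 and 10:6, where 19.9%, 27.3% and 29.7% of all genes rose and 7.46%, 18.1% and 18.3% fell. The median log2 difference of the 5 was 0.59, 0.84 and 0.80. ITGB1, the β1 subunit with which these α subunits pair, was at 45.58 ± 2.1 FPKM in BON-1 alone and 80.02 ± 6.08 at 10:6 (log2 difference 0.80 ± 0.06, limma adjusted p = 1.11e-06). ITGA1, the α1 subunit that binds collagens, rose from 2.811 to 5.811 FPKM (0.83, limma adjusted p = 1.22e-05), and ITGA2, the α2 subunit, from 1.074 to 2.798 (0.87, limma adjusted p = 4.41e-06). ANTXR2, which takes part in clearing collagen VI, rose from 10.25 to 16.46 FPKM (0.63, limma adjusted p = 1.99e-06). In the order given, these differences were 0.40, 0.41, 0.44 and 0.20 after trends on length and GC were taken out, and all 4 calls held at 10:6. For ANTXR2 the call was then lost at 10:2 (0.11, limma adjusted p = 0.0913) and 10:4 (0.07, limma adjusted p = 0.253). ITGA3, a laminin-binding subunit, was at 17.12 and 18.37 FPKM (0.10, adjusted p = 0.17), and at 0.19 (adjusted p = 0.022) with the trends removed. The remaining 4 were below 1 FPKM in both groups: ITGA10 at 0.712 and 0.605, ITGA11 at 0.242 and 0.89, CSPG4 at 0.141 and 0.384, and ANTXR1, which binds the α3 chain, at 0.222 and 0.484. From 10:2 to 10:6 the count was 2 of 5 up and none down, where 4.52% of all genes rose and 2.45% fell. The 2 were ITGA2 (0.28, limma adjusted p = 0.0475) and ANTXR2 (0.20, limma adjusted p = 0.0355). With the trends removed both calls were lost (0.16, limma adjusted p = 0.202, and 0.08, limma adjusted p = 0.295).

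Matrix partners of collagen VI moved unevenly. Of 16 partners 9 were tested, and 2, 3 and 4 rose and 0, 1 and 1 fell at 10:2, 10:4 and 10:6 against BON-1 alone, with median log2 differences of -0.00, 0.12 and 0.09. Over all genes 19.9%, 27.3% and 29.7% rose and 7.46%, 18.1% and 18.3% fell, so the 2 and 3 rises among 9 are near the background. COL1A1 rose from 9.222 ± 0.148 FPKM in BON-1 alone to 54.44 ± 0.794 at 10:6 (2.44 ± 0.03, limma adjusted p = 1.48e-12). FN1, fibronectin, rose from 21.71 to 41.97 FPKM (0.92, limma adjusted p = 6.56e-08); with trends removed its difference was 0.52, and that at 10:2 went from 0.20 (limma adjusted p = 0.00555) to -0.08 (0.191). COL4A1, a basement membrane collagen, rose from 8.753 to 10.65 (0.26, limma adjusted p = 0.00176). MATN3, a matrilin that links collagen VI to other fibrils, rose from 1.024 to 1.485 FPKM (0.30, limma adjusted p = 0.0187), a call lost without replicate 2 of BON-1 alone, without replicate 2 of 10:6 and with trends removed. BGN, biglycan, which binds collagen VI, was the most abundant partner, at 206.9 FPKM in BON-1 alone and 193.1 at 10:6. It fell by 0.10 (limma adjusted p = 0.0432), a call lost when any library of BON-1 alone, replicate 2 or 3 of 10:6, replicate 3 of 10:2 or replicate 2 of 10:4 was left out. With the trends taken out the difference was 0.04 with no call. The count of 5 called at 10:6 became 3 without replicate 2 of BON-1 alone or without replicate 2 of 10:6. COL1A1, FN1 and DCN also stand among the fibroblast markers above. Decorin (DCN), another binding partner, was not tested.

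Genes for collagen folding and secretion were abundant in BON-1 alone, and the shares that rose were near those of all genes. Of 20 genes 18 were tested: 5, 5 and 6 rose and 2, 7 and 5 fell at 10:2, 10:4 and 10:6, with median log2 differences of -0.06, -0.06 and -0.05, where 19.9%, 27.3% and 29.7% of all genes rose and 7.46%, 18.1% and 18.3% fell. Those that rose included export factors for bulky cargo. MIA3 (TANGO1), which loads collagens into COPII carriers, went from 7.144 ± 0.0944 to 13.28 ± 0.381 FPKM (0.81 ± 0.05, limma adjusted p = 4.92e-07), and the COPII coat genes SEC24D and SEC23A from 9.519 to 13.96 (0.51, limma adjusted p = 7.68e-06) and from 3.104 to 5.441 (0.65, limma adjusted p = 0.00017). P4HA1, a catalytic subunit of prolyl hydroxylase, rose from 8.328 to 13.93 FPKM (0.68, limma adjusted p = 1.94e-05). PLOD3, which hydroxylates and glycosylates collagen VI lysines, fell by 0.25 from 85.13 to 71.45 FPKM (limma adjusted p = 4.97e-05). All 5 calls held with trends removed, at 0.39, 0.28, 0.24, 0.31 and -0.12. In that fit 5 of the list rose and 2 fell at 10:6, against 6 and 5 before.

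Genes for cleavage of collagen VI and the matrix proteases with their inhibitors made up the last list. Of 9 genes 8 were tested, with none called by limma at 10:2 (0 also at an unadjusted p under 0.05 and with limma-voom). There was 1 rise at 10:4, there were 5 rises at 10:6, and no fall was called. Over all genes 19.9%, 27.3% and 29.7% rose and 7.46%, 18.1% and 18.3% fell at 10:2, 10:4 and 10:6. The median log2 difference at 10:6 was 0.21. MMP14, a membrane-bound protease that cuts endotrophin from α3, rose from 13.71 ± 0.746 to 17.82 ± 0.694 FPKM (0.36 ± 0.05, limma adjusted p = 0.00017). MMP2, a gelatinase that is also among the fibroblast markers, rose from 14.54 to 17.16 FPKM (0.23, limma adjusted p = 0.00286). TIMP3 and TIMP2, inhibitors of such proteases, rose by 0.25 and 0.21 (limma adjusted p = 0.0084 and 0.0221), and FURIN, a proprotein convertase, by 0.12 (limma adjusted p = 0.0183). The count was 3 of 8 without replicate 2 of 10:6, where TIMP2 and FURIN were lost, and the calls of TIMP2, TIMP3 and FURIN were each lost under at least 1 other scaling. With length and GC trends removed by a spline, MMP14, MMP2, FURIN, TIMP1 and TIMP2 were all called as risen at 10:4. At 10:6 TIMP3 then lost its call (0.15, limma adjusted p = 0.0926). TIMP1 (0.16, limma adjusted p = 0.0144) and MMP11 (0.35, limma adjusted p = 0.0179) gained one.

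**Figure D5:**
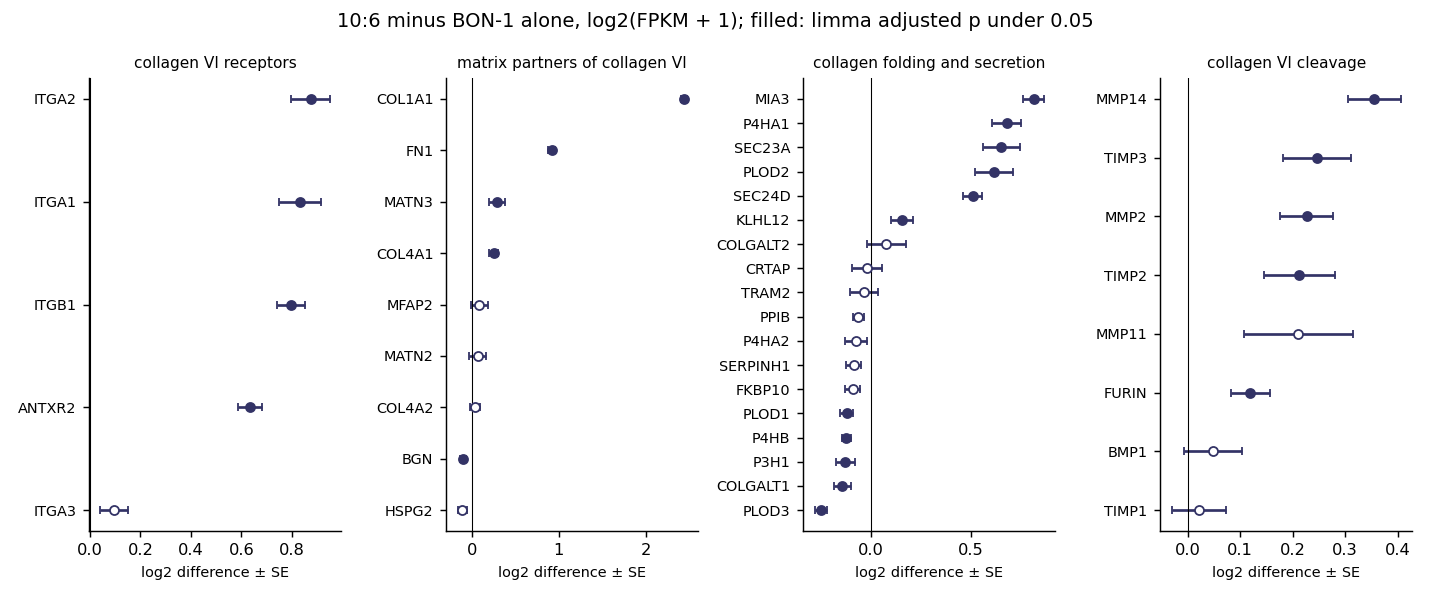
Difference in log2(FPKM + 1) at 10:6 against BON-1 alone (horizontal axis, ± SE, a separate range in each panel) for every tested gene of 4 lists; filled points passed a limma adjusted p of 0.05. Of the receptors 4 of 5 rose, and the folding and secretion genes lie on both sides of 0.

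The profile of each chain was set against those of other protein-coding genes with a mean of at least 5 FPKM in their highest group. Likeness was the root mean square gap in log2(FPKM + 1), each taken relative to BON-1 alone, over the 9 co-culture libraries. COL6A1, nearly level, had 668 of 7532 genes within 0.1. The nearest were ERLIN1, an endoplasmic reticulum protein (gap 0.03, 40.93 FPKM in BON-1 alone and 43.6 at 10:6), CTNNA1, α-catenin (0.03), SLC39A14, a metal transporter (0.03), and LAMC1, the laminin γ1 chain (0.04). COL6A2 had none within 0.1. FN1 came nearest (gap 0.11), at 21.71, 25.15, 31.64 and 41.97 FPKM in order of CAF share, followed by KIAA0101, a PCNA-binding protein (0.13), ZW10, a kinetochore protein (0.16), and HMGB1, a chromatin protein (0.16). With length and GC trends removed FN1 and COL6A2 were further apart, at 0.52 and 0.96 for 10:6 and at -0.08 and 0.22 for 10:2. Among these candidates COL6A3, itself at 4.937 FPKM, had no gene as near. SPON2, a secreted matrix protein, had a gap of 0.26, at 1.952, 2.358, 4.548 and 5.575 FPKM. SEPT11, a septin (0.30), GLO1, a glyoxalase (0.31), and FSTL1, a secreted glycoprotein at 0.6987 FPKM in BON-1 alone and 5.103 at 10:6 (0.31), followed. The minimum of 5 FPKM left out nearer genes. With a minimum of 1 FPKM, chosen after the values were seen, the nearest to COL6A3 were COL5A1, a collagen V chain (gap 0.15, at 0.5806, 1.15, 2.53 and 3.624 FPKM), THBS2, thrombospondin 2 (0.16), COL5A2, another collagen V chain (0.17), and THY1, a fibroblast marker (0.18). The nearest to COL6A2 were then PDGFRB, a PDGF receptor (0.10), PXDN, peroxidasin (0.11), FN1 (0.11) and LOXL2, a lysyl oxidase (0.13). With 1 added before the log, changes of genes below 1 FPKM are compressed, and a small gap is not an equal fold. Between BON-1 alone and 10:6, PDGFRB went from 0.1797 to 1.211 FPKM and PXDN from 0.3258 to 1.552. LOXL2 went from 2.109 to 4.429 and COL6A2 from 5.052 to 9.902. THBS2 went from 0.2209 to 1.987, against 1.268 to 4.937 for COL6A3. For COL6A1 the nearest were ERLIN1, CTNNA1 and SLC39A14 as before, then SNX19, a sorting nexin (0.03).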

How the data were processed

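RNA from 12 libraries was available as 1 table of FPKM values per gene deposited by the authors. HISAT2, featureCounts and the build hg38 are named in the submitters' processing notes; the sources used here do not give versions, annotation or strand setting, so reads of overlapping antisense genes cannot be told apart. Columns were matched to samples by their titles, and none was left unmatched. Whole reads were recovered from FPKM by finding, for each gene, the length at which its values are whole; 99.9738% of 267349 nonzero values were whole within 1e-06 of a read.

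The 13312 genes that reached 1 FPKM in 3 or more libraries, all 3 chains among them, entered a limma fit of log2(FPKM + 1) over the 4 groups (limma 3.58.1, R 4.3.3), with a variance trend and Benjamini-Hochberg adjustment within a comparison (threshold 0.05). The filter can pass genes through the group where they are high. The method was also run on simulated reads drawn from the means and depths of these libraries, and no result given here rests on that run. GC content came from GENCODE 29, while gene length was the length recovered from the FPKM values. Both were known for 90.85% of genes tested. Overlap of gene models with the chains was looked for, and none was found there. SEs are from limma for log2 differences, and from the SDs of both groups for FPKM differences.

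The chains and lists were chosen with earlier results of these data known. Named genes were all other collagen VI chains and receptors, for each other list the 5 tested genes with the lowest p at 10:6 relative to BON-1 alone, the 4 genes nearest to each chain in profile, and the 2 nearest tested genes on each side of the loci. TIMP1 and MMP11 were named as well, for calls gained with trends removed. The alternatives were a pseudocount of 0.1, other filters, scalings and variance models, a replicate block, only the groups compared, length and GC trends removed, limma-voom on recovered reads, and leaving out each library.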

Additional observations from a re-analysis of the deposited data

How the results depend on the processing

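Of 216 values of the chains under other settings 184 moved by less than the SD between replicates, as did all 216 with 1 library left out; none of COL6A2 or COL6A3 fell below 0. Values with the 0.1 pseudocount and with limma-voom are on other log scales than log2(FPKM + 1), so their sizes cannot be compared directly with the main ones. The cause of the remaining shifts was not tested. COL6A1 against BON-1 alone at 10:2, 10:4 and 10:6 was 0.092, 0.13 and 0.20 with spline trends removed and 0.16, 0.23 and 0.28 with linear trends; it was 0.038 at 10:6 with median-of-ratios scaling and 0.075 for 10:4 against 10:2 with linear trends. COL6A2 was 0.027, 0.48 and 0.72 with quantile normalization and 0.32, 0.88 and 1.10 with linear trends; spline trends gave 0.72 at 10:4 and 0.96 at 10:6, limma-voom 0.72 and 0.99, and the 0.1 pseudocount 0.96 at 10:6. COL6A3 was 0.56, 1.47 and 1.88 with the 0.1 pseudocount, 0.61, 1.56 and 1.99 with limma-voom, and 0.25, 0.89 and 1.22 with quantile normalization; for 10:4 and 10:6 against 10:2 it was 0.91 and 1.33 with that pseudocount and 0.95 and 1.38 with limma-voom.

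With 1 library left out, COL6A1 ranged from 0.00 to 0.05 at 10:2, -0.01 to 0.06 at 10:4 and 0.07 to 0.12 at 10:6 against BON-1 alone. At 10:6 COL6A2 ranged from 0.79 to 0.93 and COL6A3 from 1.34 to 1.42. Numbers of genes called then ranged from 2588 to 3807, 5070 to 6063 and 5405 to 6464, for 10:4 against 10:2 from 45 (without replicate 2 of 10:4) to 461, for 10:6 against 10:4 from 12 (without that library or replicate 1 of 10:6) to 42, and for 10:6 against 10:2 from 229 (without replicate 3 of 10:6) to 1105. At 10:6, receptors called stayed at 4, partners ranged from 3 to 6, folding genes from 8 to 12 and cleavage genes from 3 to 5.

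Genes called against BON-1 alone at 10:2, 10:4 and 10:6 numbered 3648, 6046 and 6394, and 1403, 2834 and 3095 with spline trends removed; linear trends gave 2165 at 10:2 and 4053 at 10:6. Rises and falls were 2655 and 993 at 10:2 and 3638 and 2408 at 10:4, which became 2469 and 1819, and 3406 and 3462, with median-of-ratios scaling, and 1835 and 1130, and 2817 and 3622, with quantile normalization. At 10:6 they were 3953 and 2441, 3543 and 3595 with median-of-ratios scaling, 2915 and 3580 with quantile normalization, and 1392 and 1703 with spline trends removed. For 10:4 against 10:2 the count of 384 became 179 with no filter, 48 with only those groups fitted, 117 and 202 with spline and linear trends, and 1045 with limma-voom. For 10:6 against 10:4, 44 became 16, 12, 90, 134 and 276 in that order, and 69 with quantile normalization. For 10:6 against 10:2, rises and falls of 602 and 326 were 423 and 562 with median-of-ratios scaling and 492 and 453 with quantile normalization; the total of 928 became 477, 263, 438, 426 and 1541 in the same order of settings, and 584 with no variance trend. With spline trends removed partners called at 10:6 numbered 3 and folding genes 7; with no filter receptors called numbered 7; cleavage genes called numbered 3 with median-of-ratios scaling and with quantile normalization. BGN reversed to 0.038 with spline and 0.044 with linear trends, with adjusted p of 0.452 and 0.323.

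Libraries shared only a replicate number. Deviations of same-numbered libraries correlated at -0.04 to 0.05 over 18 pairs, and 2 of 12 libraries correlated best with their own number. With a replicate block genes called numbered 175 for 10:4 against 10:2, 15 for 10:6 against 10:4 and 542 for 10:6 against 10:2; it moved no difference of the chains.

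Depth limits the low genes: COL6A4P1 had 24 to 32 reads a group, and COL6A6 had 1 read in all.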

Other observations

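Genes beside the collagen VI loci were compared as well, the 2 nearest tested protein-coding genes on each side. Around COL6A1 and COL6A2, all 4 were lower at 10:6 than in BON-1 alone, and 3 fell by the test, where 18.3% of all genes fell. LSS, lanosterol synthase, fell by 0.26 (limma adjusted p = 0.000452) from 21.4 ± 0.546 to 17.73 ± 0.562 FPKM (SD, n = 3). SLC19A1, the reduced folate carrier, fell by 0.18 (limma adjusted p = 0.041) and SPATC1L by 0.22 (limma adjusted p = 0.043), while PCBP3, an RNA-binding protein, was at 10.9 and 9.328 FPKM (limma adjusted p = 0.12). COL6A2, between them, was at 5.052 and 9.902 FPKM, a difference in the other direction. With length and GC trends removed the differences were -0.17 for LSS, -0.08 for SLC19A1, -0.09 for SPATC1L and -0.07 for PCBP3.

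Around COL6A3, COPS8, a subunit of the COP9 signalosome, rose from 18.94 to 24.76 FPKM (0.37, limma adjusted p = 0.00123), but the difference was 0.01 with length and GC trends removed. On the other side MLPH, melanophilin, fell by 0.22 (limma adjusted p = 0.000317) and RAB17, a small GTPase, fell by 0.24 (limma adjusted p = 0.00675), with -0.14 and -0.13 after the trends were removed. ACKR3, an atypical chemokine receptor, was at 4.431 and 3.858 FPKM (limma adjusted p = 0.19). A divergent long noncoding gene, COL6A2-DT, starts 467 bases from the start of COL6A2 in RefSeq and was not analysed here.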
